A study of Homo sapiens with 6 samples.

Results

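The interleukin-6 (IL-6) family was examined in MDA-MB-231 cells, an established triple-negative breast cancer line, after adenoviral delivery of the p110 form of ADAR1, an RNA editing enzyme that turns adenosines of double-stranded RNA into inosines. Its 10 members were selected by gene symbol among the 60461 genes of the count table. They comprise 5 ligands (IL6, LIF, IL11, CLCF1 and OSM), 4 receptor chains (IL6R, IL6ST, LIFR and OSMR) and SOCS3, an inhibitor induced by the pathway. The comparison asked how their transcripts differed between cells given the ADAR1 p110 adenovirus (3 libraries) and cells given an adenovirus coding for enhanced green fluorescent protein (GFP; 3 libraries). Both groups carried an adenoviral vector at a multiplicity of infection of 200, had their medium changed at 16 h and gave total RNA at 48 h. Untransduced cells were not analysed here. The labels call the replicates biological without saying how the cultures were kept apart, so the p-values reflect only library-to-library spread, which may be technical.

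IL-6 family cytokines are secreted proteins that share a signalling receptor chain, gp130, which IL6ST encodes. IL-6 and IL-11 first bind a ligand-specific chain and then assemble gp130 pairs, LIF joins gp130 to the LIF receptor, and oncostatin M joins it to the oncostatin M receptor. The bound receptors activate Janus kinases and the transcription factor STAT3, which induces SOCS3, and SOCS3 in turn blocks signalling at gp130. IL6 itself is a classical target of the transcription factor NF-kappaB, and breast cancer cells of the mesenchymal type are known to secrete IL-6 and LIF.

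Promoter sequences are shown for IL6 and IL11, the ligand genes found in the promoter table, because both are abundant in these cells and IL6 fell while IL11 was not called. They cover 250 bases before to 50 bases after the RefSeq transcript start and are written 5′ to 3′ on the strand of the gene, with GRCh38.p14 coordinates, and capitals mark motif matches.
IL6, chr7:22726950-22727249, plus strand: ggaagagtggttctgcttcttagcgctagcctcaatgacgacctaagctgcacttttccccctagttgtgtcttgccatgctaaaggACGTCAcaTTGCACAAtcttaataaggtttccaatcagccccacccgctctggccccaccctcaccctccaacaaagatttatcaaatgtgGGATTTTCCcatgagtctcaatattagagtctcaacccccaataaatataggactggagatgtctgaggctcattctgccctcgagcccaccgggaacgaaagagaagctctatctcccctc
IL11, chr19:55370414-55370713, minus strand: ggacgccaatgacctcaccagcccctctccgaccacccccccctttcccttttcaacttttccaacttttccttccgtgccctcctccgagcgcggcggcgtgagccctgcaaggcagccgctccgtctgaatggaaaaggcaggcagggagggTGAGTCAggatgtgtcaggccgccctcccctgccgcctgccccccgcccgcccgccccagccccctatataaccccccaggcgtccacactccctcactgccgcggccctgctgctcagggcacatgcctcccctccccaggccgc
The motifs searched on both strands were GGNNTTTCC for NF-kappaB, TTGCNCAA for C/EBP factors, TGACGT as the core of a cyclic AMP response element, TGANTCA for AP-1 and TTCNNNGAA for STAT factors. In the IL6 window the NF-kappaB motif was matched at bases -72 to -64 from the transcript start, the C/EBP motif at -155 to -148 and the cyclic AMP core, on the opposite strand, at -163 to -158, and no 2 of these overlapped. The IL11 window held only an AP-1 match, at -96 to -90. Among all 35116 promoters of the table, the NF-kappaB motif occurred in 6.26%, the C/EBP motif in 2.61%, the cyclic AMP core in 7.98%, the AP-1 motif in 7.71% and the STAT motif in 7.66%. Of the 10 members, 7 were matched to the table, LIF, CLCF1 and OSM being absent from it. Among those 7 only IL6 had an NF-kappaB match, while IL6R and OSMR had an AP-1 match each and 2 of the 3 LIFR promoters a STAT match. A match describes these letters and does not show a bound site.

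Total counts ran from 72741235 to 99589278 per library, and replicates of a group correlated at 0.993 to 0.994 on the log2 scale across genes, which are not independent replicates. ADAR was 3.76-fold higher in the ADAR1 p110 libraries (1006 ± 13.2 CPM) than in the GFP libraries (267 ± 8.67 CPM; SD, n = 3 each), where CPM are read counts set to a common library total with TMM scaling. On the second principal component, with 21.6% of the variance, ADAR1 p110 replicate 1 and GFP replicate 2 lay apart from the other 4 libraries, 1 from each group. VIM, CD44, EGFR, KRT18, CAV1 and AXL, genes known to be expressed in this line, were all tested and abundant. They summed to 5694 to 5893 CPM in ADAR1 p110 libraries and 5234 to 5470 CPM in GFP libraries. Of these genes 1 was called, CAV1, which rose to 879 ± 10.5 CPM, against 767 ± 21.1 CPM (edgeR adjusted p = 0.0378). The shares to set beside each marker list are those over all tested genes, of which 4.91% were called, 1.95% higher and 2.96% lower. The hormone receptor genes ESR1 and PGR were near 0. With FOXA1, also near 0, and ERBB2, GATA3 and CDH1, the luminal markers summed to 96.6 to 99.4 CPM in ADAR1 p110 libraries and 90.5 to 95.5 CPM in GFP libraries. Most of this was ERBB2, at 90.1 ± 2.04 CPM against 85.8 ± 3.16 CPM, and 1 of the list was called, CDH1, which rose to 4.15 ± 0.241 CPM, against 2.80 ± 0.0845 CPM (edgeR adjusted p = 0.00966). Of the leukocyte markers CD3E and MS4A1 had no count and the list summed to 10.3 to 11.1 CPM in ADAR1 p110 libraries and 11.6 to 14.0 CPM in GFP libraries. Most of this was CSF1R, at 6.20 ± 0.701 CPM against 7.72 ± 0.681 CPM, with CD14 at 2.91 against 3.60 CPM and LYZ at 1.15 against 0.781 CPM. Of the 4 tested, 0 were called, beside 4.91% of all tested genes. The endothelial markers summed to 7.54 to 8.06 CPM against 10.1 to 11.0 CPM, nearly all of it KDR, with CDH5 near 0 and PECAM1 not matched. KDR was called lower, at 7.39 ± 0.274 CPM against 10.1 ± 0.410 CPM (log2 fold change -0.45, edgeR adjusted p = 0.00603). The fibroblast markers summed to 63.0 to 70.2 CPM against 65.1 to 71.3 CPM, and of 5 tested 0 were called. All libraries are labelled as the cultured line MDA-MB-231, with no other cell type named. Bulk RNA does not show how many cells, or which, gave a transcript. The part of these marker levels in the results was not tested.

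Of the 9 members with enough counts to test, 2 fell in ADAR1 p110 cells and 0 rose (adjusted p under 0.05 by the quasi-likelihood test of edgeR, with Benjamini-Hochberg adjustment over all tested genes). These were the ligand genes IL6 and LIF. Of all 18899 tested genes 2.96% were called lower and 1.95% higher, or 4.91% in either direction. With library size alone as the scaling, 51.6% of all called genes were higher, against 39.7% under TMM, and the same 2 members were called. At an unadjusted p under 0.05, 2 members (CLCF1 and SOCS3) were higher and 3 lower, beside 9.21% and 9.43% of all tested genes. DESeq2 and limma-voom, which called 6.94% and 5.07% of all genes, called the same 2 members lower and 0 higher. The libraries of the groups did not overlap for 4 members that were lower (IL6, LIF, IL6R and IL6ST) and 1 that was higher (SOCS3), beside 12.2% and 11.8% of all tested genes. The median log2 fold change over the 9 members was -0.12, with 0.00 over all tested genes.

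**Figure D1:**
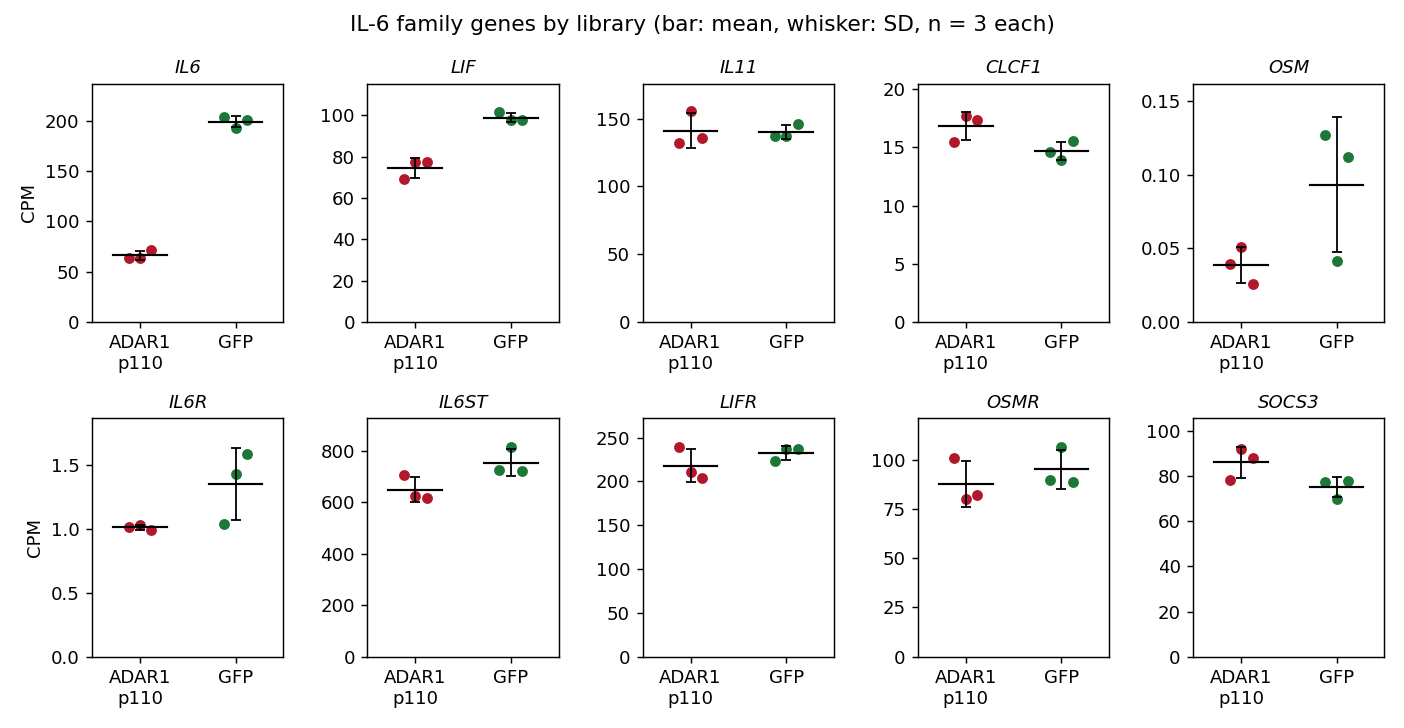
Level of each of the 10 family members in CPM (vertical axes, each starting at 0) in the 3 ADAR1 p110 libraries (red) and the 3 GFP libraries (green), with the group mean as a horizontal line and the SD as a whisker. IL6 lay at 63.8 to 71.7 CPM in ADAR1 p110 libraries and 193 to 204 CPM in GFP libraries, while the points of IL11, LIFR and OSMR overlapped between groups.

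IL6, which encodes the founding cytokine of the family (ENSG00000136244.11_3, hg19 chromosome 7, 22765503 to 22771621, plus strand), changed most. Its levels were 63.8, 63.9 and 71.7 CPM in ADAR1 p110 replicates 1, 2 and 3, against 204, 193 and 201 CPM in the GFP replicates. Every ADAR1 p110 library lay far below every GFP library, and each group was tight around its mean, 66.4 ± 4.55 CPM against 199 ± 5.46 CPM (SD, n = 3 each). IL6 fell by 66.7%, which is -1.58 as a log2 fold change with a 95% interval of -1.72 to -1.45 (SE 0.060, edgeR adjusted p = 6.28e-08). By size of log2 fold change it ranked 83 among all tested genes. Each value rests on 4843 to 6292 counts in the ADAR1 p110 libraries and 14013 to 19773 in the GFP libraries. An antisense RNA that overlaps the locus, AC073072.1, held 1.15% as many counts and was not called, at a log2 fold change of -0.15.

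LIF (leukemia inhibitory factor, ENSG00000128342.4_2, chromosome 22, 30636436 to 30642840, minus strand) encodes a cytokine that maintains stem cells in mouse and acts through the LIF receptor and gp130. It had 69.1, 77.6 and 77.2 CPM in the ADAR1 p110 replicates, against 101, 97.7 and 97.7 CPM in the GFP replicates. The groups were separate, although the gap was narrow beside that of IL6. LIF averaged 74.6 ± 4.77 CPM against 98.9 ± 2.10 CPM and fell by 0.41 on the log2 scale (SE 0.058, 95% interval -0.53 to -0.28, edgeR adjusted p = 0.00234). That was a 1.33-fold lower level. Within a library, where scaling plays no part, there were 0.891 ± 0.059 IL6 counts per LIF count in the ADAR1 p110 libraries and 2.01 ± 0.040 in the GFP libraries (SD, n = 3 each).

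IL11 encodes a cytokine with roles in bone, placenta and fibrosis (ENSG00000095752.6_3, chromosome 19, 55875757 to 55881831, minus strand). It had 132, 156 and 136 CPM in the ADAR1 p110 replicates, against 138, 137 and 146 CPM in the GFP replicates. The groups overlapped, with both the lowest and the highest library among those given ADAR1 p110. Means were 141 ± 12.9 CPM against 140.3 ± 5.19 CPM, and the log2 fold change was 0.01 (SE 0.067, edgeR adjusted p = 0.972). The 95% interval of the fold ran from 0.907 to 1.11, so a change as large as that of LIF lay outside it. IL6 stood at 0.484, 0.410 and 0.529 counts per IL11 count in the ADAR1 p110 replicates, against 1.48, 1.41 and 1.37 in the GFP replicates. In the GFP libraries IL6 reads thus exceeded IL11 reads, and in the ADAR1 p110 libraries they did not. This ratio and 6 others between members were compared by exact 2-sided permutation over libraries, in which 3 against 3 cannot go below p = 0.10. The exact p for IL6 over IL11 was 0.10, or 0.117 after Benjamini-Hochberg adjustment over the 7 ratios.

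CLCF1 encodes cardiotrophin-like cytokine factor 1, which signals through gp130 and the LIF receptor with the help of the ciliary neurotrophic factor receptor (ENSG00000175505.10_3, chromosome 11, 67131639 to 67141648, minus strand). It had 15.5, 17.7 and 17.4 CPM in the ADAR1 p110 replicates, against 14.6, 13.9 and 15.5 CPM in the GFP replicates. The separation was not complete, since ADAR1 p110 replicate 1 lay just below GFP replicate 3. The log2 fold change was 0.20 (SE 0.076, 95% interval 0.03 to 0.36), which did not pass after adjustment (edgeR adjusted p = 0.188). Without ADAR1 p110 replicate 1 it was 0.25 and passed (edgeR adjusted p = 0.0456). The RAD9A gene lies across part of the CLCF1 locus in the opposite orientation and held 73.5% of the CLCF1 count, though the GENCODE exons of the pair share 0 bases. Those of CLCF1 cover 1836 bases, against 1975 in the deposited gene length, so the exons counted may differ.

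OSM, which encodes oncostatin M (ENSG00000099985.3_2, chromosome 22, 30658818 to 30662829, minus strand), lies 15977 bases from LIF. It had 3, 5 and 2 counts in the ADAR1 p110 replicates, against 11, 3 and 11 counts in the GFP replicates. A count of 0 allows up to 3 counts, equal to 0.0304 to 0.0414 CPM over the 6 libraries and covering counting error only, and 3 of the 6 libraries were at or under that floor. OSM did not pass the low-count filter, and no fold is given. Its receptor chain was well expressed, as described below for OSMR.

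As shares of the length-scaled counts of the 5 ligands, IL6 made up 28.6 ± 2.19% in the ADAR1 p110 libraries and 53.1 ± 0.604% in the GFP libraries (SD, n = 3 each). IL11 made up 47.0 ± 2.43% in the ADAR1 p110 libraries and 29.0 ± 0.784% in the GFP libraries. LIF held 16.7 ± 0.317% against 13.8 ± 0.350%, CLCF1 7.60 ± 0.156% against 4.11 ± 0.138% and OSM under 0.1% in every library. The most abundant ligand transcript per length was therefore IL11 in each ADAR1 p110 library and IL6 in each GFP library. Shares sum to a whole, so the larger shares of IL11, LIF and CLCF1 follow in part from the lower level of IL6. They are not read here as separate changes, and LIF itself had a lower level in CPM.

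**Figure D2:**
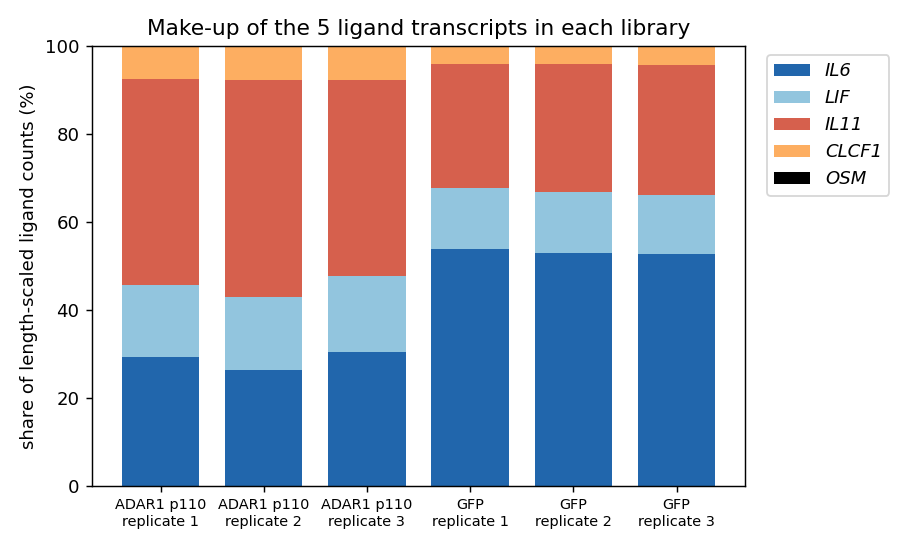
Share of each ligand transcript (vertical axis, percent) in the counts per kilobase of the 5 ligand genes, for each of the 6 libraries. IL6 takes 26.2% to 30.5% in the ADAR1 p110 libraries on the left and 52.7% to 53.8% in the GFP libraries on the right, and OSM is too rare to be seen.

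None of the 4 receptor genes was called with all 6 libraries. IL6ST, encoding gp130 (ENSG00000134352.19_2, chromosome 5, 55230923 to 55290821, minus strand), had 706, 626 and 615 CPM in the ADAR1 p110 replicates, against 726, 816 and 719.8 CPM in the GFP replicates. All ADAR1 p110 libraries were lower, but ADAR1 p110 replicate 1 came close to GFP replicates 1 and 3. Its log2 fold change was -0.22 (SE 0.069, 95% interval -0.37 to -0.06, edgeR adjusted p = 0.113). Without ADAR1 p110 replicate 1 the value was -0.28 and passed (edgeR adjusted p = 0.00808). It passed too without a low-count filter (edgeR adjusted p = 0.00482), where 4.57% of all genes were called. The p-values of that unfiltered fit are not comparable with those of the main fit. There the edgeR adjusted p of IL6 was 1.17e-132, against 6.28e-08 with the filter, at the same log2 fold change of -1.58.

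LIFR, the signalling chain for LIF (ENSG00000113594.9_2, chromosome 5, 38475065 to 38608456, minus strand), had 239, 211 and 204 CPM in the ADAR1 p110 replicates, against 224, 237 and 238 CPM in the GFP replicates. The highest library was ADAR1 p110 replicate 1, so the groups overlapped. The log2 fold change was -0.09 (SE 0.064, 95% interval -0.24 to 0.05, edgeR adjusted p = 0.496). OSMR, the oncostatin M receptor chain (ENSG00000145623.12_3, 38845960 to 38945698, plus strand), lies 237503 bases from LIFR on the same chromosome. It had 101, 79.9 and 81.8 CPM in the ADAR1 p110 replicates, against 89.8, 106 and 88.8 CPM in the GFP replicates. Here ADAR1 p110 replicate 1 and GFP replicate 2, both outlying on the second principal component, were the highest of their groups. The log2 fold change was -0.12 (SE 0.096, 95% interval -0.33 to 0.09, edgeR adjusted p = 0.579). RICTOR runs into the OSMR locus from the opposite strand with 118% of its count, and its GENCODE exons share 229 bases with those of OSMR, or 3.19% of them.

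IL6R encodes the chain that binds IL-6 itself (ENSG00000160712.12_2, chromosome 1, 154377669 to 154441926, plus strand). It was rare, with 77, 102 and 77 counts in the ADAR1 p110 replicates, against 90, 104 and 156 counts in the GFP replicates. In CPM these were 1.01, 1.04 and 0.996 against 1.04, 1.43 and 1.59, and GFP replicate 1 lay just above the highest ADAR1 p110 library. IL6R had a log2 fold change of -0.41 with a wide error (SE 0.194, 95% interval -0.84 to 0.01, edgeR adjusted p = 0.284). Over the fits with 1 library left out the value ran from -0.57 to -0.27 and was not called in any.

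SOCS3, the feedback inhibitor that binds gp130 (ENSG00000184557.4_3, chromosome 17, 76352859 to 76356158, minus strand), had 78.2, 91.9 and 88.1 CPM in the ADAR1 p110 replicates, against 77.4, 69.9 and 78.1 CPM in the GFP replicates. The groups were separate by a narrow margin, with ADAR1 p110 replicate 1 level with GFP replicates 1 and 3. The log2 fold change was 0.20 (SE 0.070, 95% interval 0.04 to 0.35, edgeR adjusted p = 0.157). Without ADAR1 p110 replicate 1 it was 0.26 and passed (edgeR adjusted p = 0.0140). It also passed without a low-count filter (edgeR adjusted p = 0.0492), in the fit whose p-values are not comparable with those of the main fit. Its direction was higher in all 3 ADAR1 p110 libraries, opposite to that of IL6 and LIF.

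With both ADAR1 p110 replicate 1 and GFP replicate 2 left out, 6 of 10 tested members passed, against 13.4% of all genes tested in that fit. These 2 libraries were picked by their place on the second principal component of these same data. Such a choice can lower the spread within groups, so adjusted p from that fit may be too small. IL6, LIF, IL6ST, LIFR and OSMR were lower (7.32% of all genes) and SOCS3 was higher (6.07%). Log2 fold changes were then -0.22 for IL6ST, -0.15 for LIFR, -0.14 for OSMR and 0.22 for SOCS3 (edgeR adjusted p = 0.000499, 0.0268, 0.0355 and 0.00306). Leaving out ADAR1 p110 replicate 1 alone gave 5 calls of 9, against 9.19% of all genes. IL6 and LIF were lower in every one of the 13 alternative fits, with adjusted p of at most 5.19e-06 and 0.0205.

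**Figure D3:**
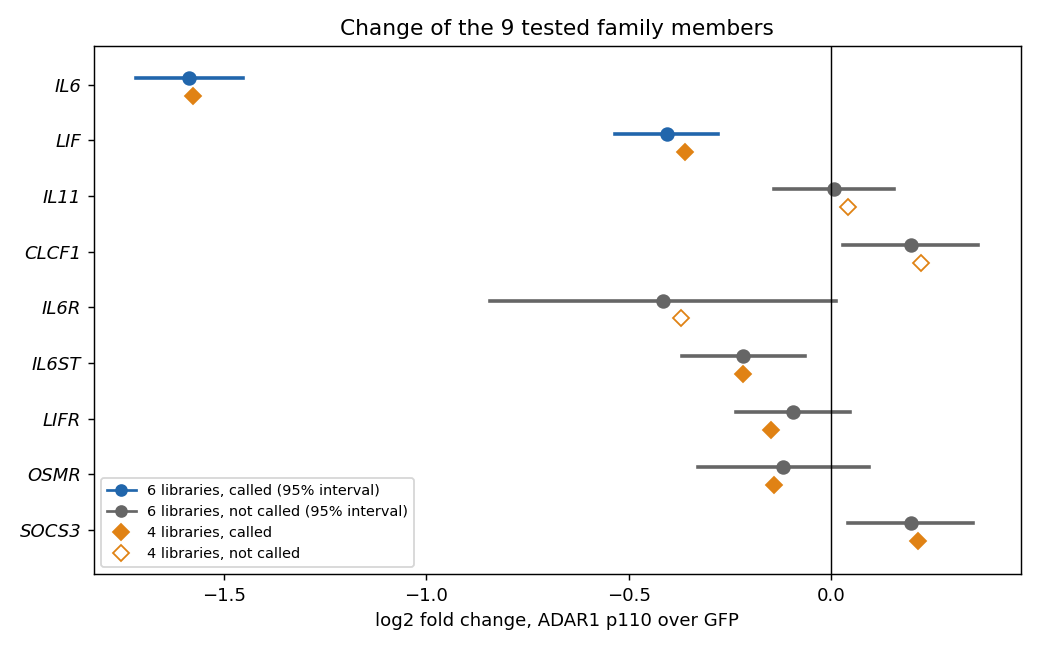
The 9 tested members by their log2 fold change (horizontal axis, ADAR1 p110 relative to GFP), as circles with the 95% interval for all 6 libraries (blue where called, grey where not), and as diamonds without ADAR1 p110 replicate 1 and GFP replicate 2 (filled where called). IL6, at -1.58, and LIF, at -0.41, were called both ways, and IL6ST, LIFR, OSMR and SOCS3 with 4 libraries but not with 6. The 4 libraries were chosen from these same data, so adjusted p of that fit may be too small.

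Per kilobase of the deposited gene length (RPKM, CPM divided by length), the levels in ADAR1 p110 cells ran in the order IL6ST, at 69.8 ± 5.37 RPKM, IL11, at 52.8 ± 4.81, and IL6, at 32.1 ± 2.20, followed by SOCS3, LIF, LIFR, OSMR, CLCF1, IL6R and OSM. In GFP cells IL6 came first, at 96.3 ± 2.64 RPKM, then IL6ST, at 81.1 ± 5.78, and IL11, at 52.5 ± 1.94, with the other 7 in the same order (SD, n = 3 each). Neighbours whose libraries overlapped were IL6 with SOCS3 and LIF with LIFR in ADAR1 p110 cells, and there were no such pairs in GFP cells. The lower end was the same in both, with IL6R at 0.157 ± 0.0031 RPKM against 0.210 ± 0.0439 RPKM and OSM below it. Of the receptor chains IL6ST therefore exceeded IL6R by more than the spread of either gene in every library.

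Genes whose profiles over the 6 libraries lay closest to that of IL6, by Euclidean distance between centred log2 CPM, were SAA2 (0.129), TRAF1 (0.170) and ZC3H12A (0.205), where the median distance of 11916 candidates was 1.96. SAA2 encodes an acute-phase protein, TRAF1 a signalling adaptor of tumour necrosis factor receptors, and ZC3H12A the endonuclease Regnase-1. TRAF1 had 21.2 ± 0.949 CPM in ADAR1 p110 cells and 58.9 ± 2.63 CPM in GFP cells, and SAA2 had 9.33 ± 0.544 CPM against 28.8 ± 1.01 CPM. SAA2 and SAA1 are close paralogs, so the split of reads between them is uncertain. Closest to LIF were SQSTM1 (0.037), ST3GAL4 (0.054) and CNTNAP1 (0.054), with a median of 0.560 over the candidates. SQSTM1, which encodes an autophagy receptor, had 238 ± 15.9 CPM against 316 ± 12.3 CPM. MGAT4B overlaps SQSTM1 in the opposite orientation with 40.0% of its count and was not called, and their shared exon bases were not examined. The distances are over 6 libraries in 2 groups, so they describe mainly the size of the group difference.

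Other genes of the pathway were read from 7 lists, chosen with earlier results of these data known. Beside the counts of genes that fell, 2.96% of all tested genes were called lower with all 6 libraries. In 4 of them, those of other ligands, other receptors, shedding and signal transducers, no gene rose with all 6 libraries, where 1.95% of all tested genes did. In these 4 lists only LEPR, a receptor gene picked with its values known (log2 fold change 0.26, edgeR adjusted p = 0.0852), was higher at an unadjusted p under 0.05, and DESeq2 and limma-voom called 0 higher. With both ADAR1 p110 replicate 1 and GFP replicate 2 left out, 1 of the other receptors was called higher, beside 6.07% of all genes.

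Other ligands and partner chains of the gp130 family were scarce. Of 6 listed, 4 were tested and 1 fell, with a list median log2 fold change of 0.04. EBI3, a soluble chain that pairs with p28 to form IL-27, fell to 0.566 ± 0.074 CPM in ADAR1 p110 cells, against 1.51 ± 0.245 CPM in GFP cells (log2 fold change -1.42, SE 0.204, edgeR adjusted p = 0.00253). Of 5 other receptor chains, 4 were tested and 2 fell, with a median of -0.05. IL27RA, the IL-27 receptor chain, had 15.9, 17.2 and 16.8 CPM in the ADAR1 p110 replicates, against 25.6, 24.6 and 25.8 CPM in the GFP replicates. Its groups were well apart, at -0.61 on the log2 scale (SE 0.061, edgeR adjusted p = 0.000222). IL31RA, which lies 12241 bases from IL6ST on chromosome 5 and encodes the IL-31 receptor chain, fell by 0.33 on the log2 scale (edgeR adjusted p = 0.00780). That call ended when ADAR1 p110 replicate 3, GFP replicate 1 or GFP replicate 3 was left out (edgeR adjusted p = 0.0536, 0.0540 and 0.0519).

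Proteases and cofactors that release soluble IL-6 receptor from the cell surface were tested as a list of 4, of which 2 fell, with a median of -0.20. ADAM17, a sheddase of IL-6 receptor, had 118, 119.8 and 119 CPM in the ADAR1 p110 replicates, against 149.8, 151 and 146 CPM in the GFP replicates. The groups were separate, at -0.32 on the log2 scale (SE 0.046, edgeR adjusted p = 0.00253). The IAH1 gene, in the opposite orientation, overlaps ADAM17 and held 19.2% of its count, and 1645 bases, or 10.3% of the GENCODE exons of ADAM17, are shared. Those exons cover 15964 bases, against 5491 in the deposited gene length, so the overlap among counted exons may differ. RHBDF2, encoding iRhom2, which carries ADAM17 to the cell surface, fell 1.56-fold to 31.5 ± 2.75 CPM, against 49.0 ± 1.10 CPM (edgeR adjusted p = 0.000327). Protein and soluble receptor were not measured.

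Among 11 kinases, STAT factors and adaptors that carry the gp130 signal, 2 fell, with a median log2 fold change of -0.07. STAT5A had 11.0, 12.5 and 12.3 CPM in the ADAR1 p110 replicates, against 24.7, 23.2 and 23.3 CPM in the GFP replicates. It fell 1.99-fold, with the groups far apart (log2 fold change -0.99, SE 0.071, edgeR adjusted p = 1.2e-05). JAK1, the main Janus kinase of gp130, fell to 134 ± 0.608 CPM, against 165 ± 5.74 CPM (log2 fold change -0.30, edgeR adjusted p = 0.00473). RAVER2 overlaps JAK1 in the opposite orientation with 7.06% of its count and was called higher (log2 fold change 0.28, edgeR adjusted p = 0.0411). The GENCODE exons of the pair share 10 bases, or 0.076% of those of JAK1. STAT3, the main transcription factor of the pathway, chosen for mention with its values known, had a log2 fold change of -0.20 and did not pass (edgeR adjusted p = 0.0741). Without ADAR1 p110 replicate 1 the list gave 4 lower genes, in a fit that called 9.19% of all genes in either direction.

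Of 11 inhibitors of this signalling other than SOCS3, 1 rose and 1 fell, with a median log2 fold change of 0.05. The phosphatase gene PTPN1 rose to 131 ± 7.36 CPM, against 108 ± 7.50 CPM (log2 fold change 0.28, edgeR adjusted p = 0.0298), and the phosphatase gene PTPN2 fell to 44.0 ± 0.668 CPM, against 50.5 ± 0.695 CPM (log2 fold change -0.20, edgeR adjusted p = 0.0478). Leaving out any 1 of 4 libraries, which were ADAR1 p110 replicates 2 and 3 with GFP replicates 1 and 2, ended both calls, and leaving out GFP replicate 3 ended that of PTPN2. The call of PTPN2 also ended with library size alone as the scaling and without a low-count filter (edgeR adjusted p = 0.0682 and 0.0775), and under the replicate block both calls ended (edgeR adjusted p = 0.0640 for PTPN1 and 0.165 for PTPN2). Without ADAR1 p110 replicate 1, 4 genes of the list were called, beside 9.19% of all genes.

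Of 22 genes known to be induced through STAT3, 20 were tested, of which 3 fell and 1 rose, with a median log2 fold change of -0.07. SAA1, encoding the acute-phase protein serum amyloid A1, had 35.0, 36.0 and 36.2 CPM in the ADAR1 p110 replicates, against 85.7, 79.5 and 87.5 CPM in the GFP replicates. It fell 2.36-fold (log2 fold change -1.24, SE 0.056, edgeR adjusted p = 2.69e-07), with a wide gap between the groups. The interferon regulatory factor gene IRF1 fell to 98.9 ± 5.18 CPM, against 136 ± 5.68 CPM, and IL4R, the interleukin-4 receptor chain, to 49.4 ± 1.01 CPM, against 59.8 ± 2.07 CPM (edgeR adjusted p = 0.000950 and 0.0128). The call of IL4R ended when ADAR1 p110 replicate 2, ADAR1 p110 replicate 3 or GFP replicate 1 was left out, and under the replicate block (edgeR adjusted p = 0.0602). CCND1, encoding cyclin D1, rose to 296 ± 4.06 CPM, against 236 ± 5.41 CPM (log2 fold change 0.33, edgeR adjusted p = 0.00231). The DESeq2 Wald test called 7 of the 20, and 7 were called without ADAR1 p110 replicate 1, beside 6.94% and 9.19% of all genes.

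Among 10 transcription factors and RNA-binding proteins that act on the IL6 gene or its mRNA, 3 fell and 1 rose, with a median log2 fold change of -0.18. ZC3H12A, whose product degrades IL6 mRNA, had 12.1, 11.6 and 12.7 CPM in the ADAR1 p110 replicates, against 42.0, 39.5 and 40.1 CPM in the GFP replicates. It fell 3.34-fold (-1.74 on the log2 scale, SE 0.062, edgeR adjusted p = 4.07e-08), a change close in size to that of IL6, with the groups far apart. NFKB1, a subunit of NF-kappaB, fell by 0.69 on the log2 scale, and NFKBIZ, a nuclear coactivator of IL6 transcription, by 0.52 (edgeR adjusted p = 2.45e-05 and 0.00245). ZFP36, encoding tristetraprolin, which destabilises cytokine mRNAs, rose to 15.3 ± 1.62 CPM, against 10.3 ± 1.51 CPM (log2 fold change 0.57, edgeR adjusted p = 0.0154). ZFP36 was no longer called when ADAR1 p110 replicate 3 or GFP replicate 1 was left out (edgeR adjusted p = 0.0682 and 0.0773).

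**Figure D4:**
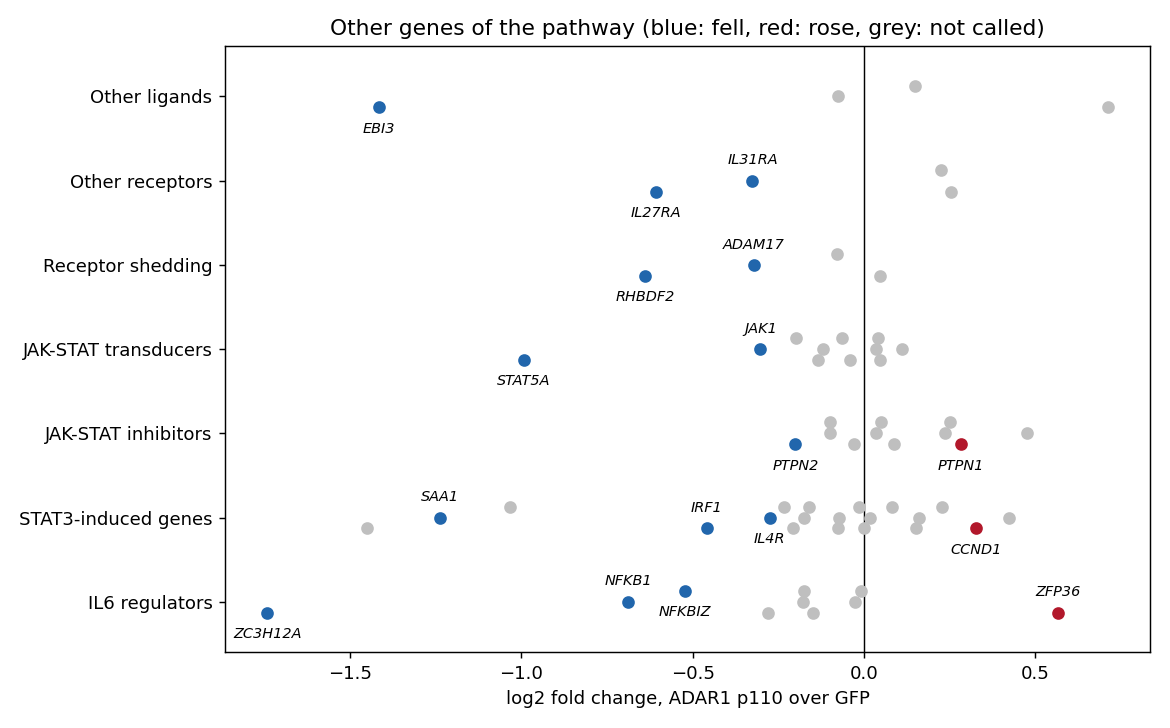
Tested genes of 7 lists around the family, 1 list per row, by their log2 fold change (horizontal axis, ADAR1 p110 relative to GFP), with called genes in blue (fell) or red (rose) and named, and other genes in grey. STAT5A (-0.99), SAA1 (-1.24), EBI3 (-1.42) and ZC3H12A (-1.74) lie farthest to the left among called genes.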

How the data were processed

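Total RNA of 6 MDA-MB-231 libraries was sequenced after column extraction and a stranded library kit, per the labels' protocols. Alignment to hg19 used STAR 2.5.2a, and gene counting used featureCounts 1.5.1, per the submitters' processing notes. The deposited values are raw counts per gene, and gene lengths and coordinates are those of the deposited table. The sources used here do not give the strand setting or the handling of multiply aligned reads, so reads in exon bases that genes on opposite strands share may not be told apart.

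Genes were kept by filterByExpr (minimum count 10) of edgeR 4.0.16 in R 4.3.3, scaled by TMM and tested by glmQLFit and glmQLFTest with group as the only term, in 1 fit of all 18899 kept genes. P-values were adjusted by Benjamini-Hochberg, and adjusted p under 0.05 was called. The SE is the log2 fold change divided by the square root of F, and intervals are 95%. A count of 0 allows 3 counts. Replicate pairs differed by more than sampling noise (chi-square per degree of freedom of 7.94 to 35.4). The tests were checked on simulated counts. Alternatives used limma 3.58.1 and DESeq2 1.42.0, among others. Promoter sequences came from a RefSeq table, and exon overlaps from GENCODE v44lift37 on the same build as the counts. Its exonic lengths differ from the deposited ones for some genes, so it need not hold the exons that were counted.

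Members and gene lists were chosen with earlier results of these data known. Besides ADAR and the members, named genes were up to 4 called genes of each list by smallest p, and the 3 protein-coding genes with at least 1 CPM closest in profile to each of the 2 most changed members.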

Additional observations from a re-analysis of the deposited data

How the results depend on the processing

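IL6 and LIF kept their direction and their call in all 13 alternatives. The count of called members was 2 with DESeq2 size factors, library size alone, the DESeq2 Wald test, limma-voom and the replicate block, but 4 without a low-count filter and 6 with both ADAR1 p110 replicate 1 and GFP replicate 2 left out. It was 2 to 5 when each library was left out in turn. The number of all called genes, 927, became 1553 without the filter, 508 with the replicate block and 2605 without those 2 libraries, and was 396 to 1812 with 1 library left out. Without those 2 libraries, the calls were 4 of 11 listed signal transducers (all lower) and 4 of 11 inhibitors (3 higher, 1 lower). They were also 12 of 22 listed STAT3-induced genes (6 higher, 6 lower) and 7 of 10 listed IL6 regulators (1 higher, 6 lower). Of 5 listed other receptors 3 were called (1 higher, 2 lower). Not all listed genes were tested, and with all 6 libraries 20 of those 22 and 4 of those 5 were. Of all genes tested without those 2 libraries, 13.4% were called, 7.32% lower and 6.07% higher. STAT3-induced genes gave 7 calls without the filter and 7 by DESeq2, where 4.57% and 6.94% of all genes were called. With 1 library left out, calls ranged from 1 to 2 for other receptors, 2 to 4 for transducers, 0 to 4 for inhibitors, 3 to 7 for STAT3-induced genes and 3 to 6 for IL6 regulators. The log2 fold change of IL11 changed sign without ADAR1 p110 replicate 2 (-0.066), GFP replicate 1 (-0.0039) and GFP replicate 2 (-0.0042), ran from -0.066 to 0.054 over the 6 fits with 1 library left out, and was not called in any of them. The cause of these shifts was not tested.

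Replicate numbers gave no clear sign of pairing, with deviations from the group means of same-numbered libraries correlated at -0.10, -0.02 and 0.04. Deviations within a group are tied to each other, so weak pairing could be missed. Libraries of unlike number correlated at -0.14 to 0.15, the highest being ADAR1 p110 replicate 1 with GFP replicate 2. With the replicate block 0 of 11 inhibitors were called, beside 508 of all 18899 tested genes. At an unadjusted p under 0.05, 3 were higher and 1 lower with the block. The main fit gave the same counts, beside 9.21% and 9.43% of all tested genes. IL6R rests on 77 to 156 counts per library and OSM on 2 to 11.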
